A study of Mus musculus with 2 samples.

Results

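Transcript models that match only the 3' part of a longer splice chain were examined in mouse heart. Their introns are the last ones of the longer transcript, and the deposited tables class them as incomplete splice matches of the suffix kind. Most begin at or inside a downstream exon, and some begin further upstream. The class label chose the members; their starts were read from the deposited model coordinates, and models were matched between libraries by their intron chain, the ordered set of their splice junctions. There were 12521 suffix models in replicate 1 and 15270 in replicate 2, which joined to 21782 distinct chains among 80666 spliced chains of all classes. The series holds 2 long-read RNA-seq libraries of 1 group and so has no treatment or genotype comparison. Each library was made from 2 µg of heart RNA of male B6CASTF1/J mice, first-generation hybrids of a laboratory and a wild-derived strain. The mice were 18 to 20 months old, and the labels name no treatment. The labels number the libraries as biological replicates and give both the same donor entry, so every p-value below compares these 2 libraries and not conditions. The tests treat reads as independent and cover counting error only, so they do not measure the spread between animals or library preparations. Replicate 1 held 688861 mouse reads and replicate 2 held 1003999.

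A long-read library holds complementary DNA copies of RNA molecules, made from the polyadenylated end towards the cap. A copy that does not reach the cap and a molecule that truly begins at a downstream start give the same kind of model. The class could therefore hold both, and the class alone does not tell them apart.

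Many of the suffix chains with the most reads start at the 5' edge of an internal coding exon. To show where they begin, 40 bases of the longer transcript around that edge are given from the GENCODE M21 transcripts (mm10), 5' to 3', for 4 such chains with many reads whose window is wholly coding. Capitals mark the first 20 bases that the model keeps, and lower case marks the 20 bases before its start.
Ndufa4, chr6, start 11905262, minus strand: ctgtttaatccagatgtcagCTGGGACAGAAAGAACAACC
Hrc, chr7, start 45337887, plus strand: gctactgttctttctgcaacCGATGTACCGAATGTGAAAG
Ndufs7, chr10, start 80255924, plus strand: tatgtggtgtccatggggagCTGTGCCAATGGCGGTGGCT
Pink1, chr4, start 138318078, minus strand: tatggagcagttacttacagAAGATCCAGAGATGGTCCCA
Both libraries place each of these 4 starts at the same base, which is an annotated exon edge. Whether the deposited starts were moved to annotated positions is not given in the labels or files used, and agreement at an edge may then reflect the annotation.

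Suffix models carried 55301 reads in replicate 1 and 84255 in replicate 2. That was 8.03% (95% exact binomial interval 7.96 to 8.09) and 8.39% (8.34 to 8.45) of mouse reads, or 8.21% ± 0.26 (SD, n = 2). The share was higher in replicate 2 by a Fisher exact test on reads (p = 2.44e-17), a difference of less than 1 percentage point. Models that match the 5' part of a chain were far fewer, with 2334 and 3297 reads, so that 23.7 and 25.6 suffix reads stood against each 5'-part read. Suffix reads came from 5152 and 5867 genes. Most models were rare: 67.0% and 65.4% of them had 1 read. At the other end, the 10 models with the most reads held 30.02% and 35.0% of all suffix reads. Intervals here cover counting error only.

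A parent was sought for each model, meaning an annotated transcript whose intron chain ends with that of the model; where several fitted, the one with the most reads was taken. A parent was found for 91.8% and 90.9% of models, which held 95.5% and 95.8% of suffix reads. The remaining 1028 and 1391 models matched only the 3' part of new models, most of them with a new combination of junctions or a new splice site. Relative to the parent, 66.4% and 66.9% of models began exactly at the 5' edge of an internal exon, and 20.2% and 20.1% began inside that exon. A further 7.20% and 6.68% began in the intron just before it, and 6.23% and 6.37% began further upstream, so that their first exon ran across at least 1 intron of the parent. Positions were thus mostly resolved to an exon and not to a base. The deposited starts lay on an annotated exon edge in 66.0% and 66.4% of models and on an annotated transcript start of the gene in 21.7% and 20.8%. Another 2.44% and 2.75% lay on an exon edge of a new model, and 9.86% and 10.03% on none of these. Ends were placed likewise: 88.4% of models in each library ended exactly at an annotated transcript end of the gene.

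Most suffix models lacked more than 1 exon. The count takes every parent exon before the first shared one, also where the first exon of a model runs across it. The median model lacked 5 exons of its parent, and 16.6% and 16.7% lacked exactly 1. Over reads the median was 3 lacking exons. Models that kept only 2 exons made up 11.96% and 12.5% of models but 28.6% and 32.9% of suffix reads, among them the Atp5b and Ndufa4 chains described next. The median model began after 32.4% and 32.5% of the parent's length, with quartiles at 17.2% and 50.7% in replicate 1. Weighted by reads the median moved to 40.8% in both libraries. That value is the start of the single Ndufa4 chain on its chosen parent, so the equal medians reflect that chain. The widest loss was in Ttn, which encodes the giant sarcomere spring titin, where a model lacked 345 exons.

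**Figure D1:**
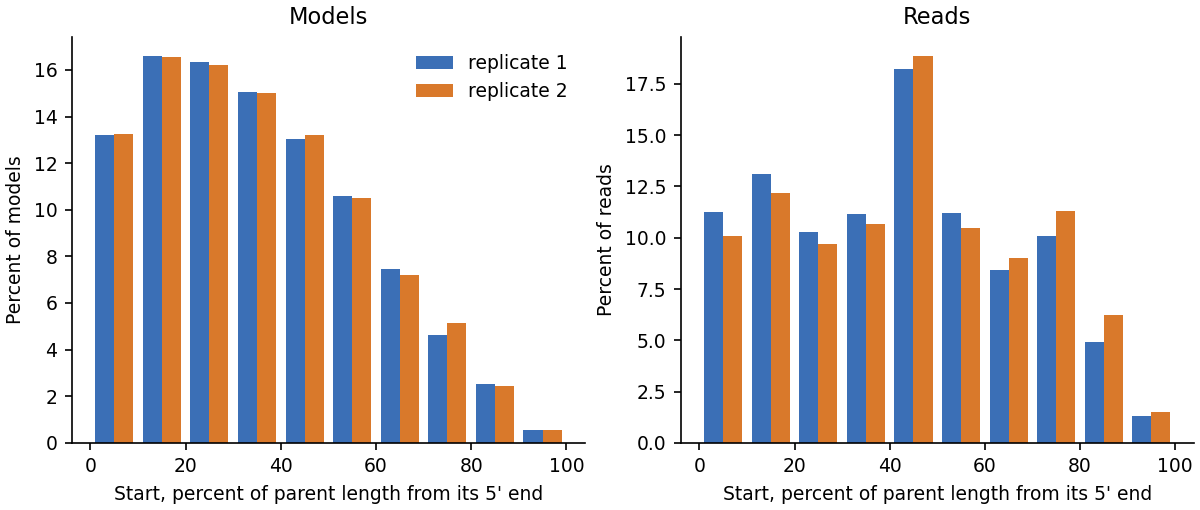
Start of suffix models along the parent transcript, as a percentage of the parent's length from its 5' end in steps of 10 percentage points; bars give the percentage of models (left) and of reads (right) in each library. Models are most frequent between 10 and 30% and rarest in the last step, whereas reads peak between 40 and 50%, the step that holds the Ndufa4 chain.

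The chains with the most reads came from the machinery of energy supply and calcium storage, among others. Atp5b encodes the catalytic beta subunit of mitochondrial ATP synthase. Its chain of 2 exons had 3857 reads in replicate 1 and 7035 in replicate 2, or 5599 and 7007 mouse-read counts per 1e6 (CPM), beside 4088 and 4595 reads on its annotated parent. It kept 13.6% of the coding sequence. Its start was placed at 128089041 on chromosome 10 in replicate 1 and at 128088975 in replicate 2, inside exon 9 in both. The position in replicate 1 is an annotated transcript start of the gene, and that in replicate 2 an exon edge of a new model.

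Ndufa4 encodes a subunit of cytochrome c oxidase. Its chain of 2 exons had 3755 and 6482 reads, above the 1627 and 2760 of its parent, and kept 46.7% of the coding sequence. Hrc encodes a histidine-rich calcium-binding protein of the sarcoplasmic reticulum. Its chain of 4 exons had 1885 and 4028 reads, against 55 and 69 on the full annotated transcript. It began after 89.4% of that transcript and kept 8.81% of the coding sequence. Ndufs7, a core subunit of complex I, had 1345 and 2448 reads on a chain of 2 exons that kept 27.4% of the coding sequence. Each of these 3 chains, of Ndufa4, Hrc and Ndufs7, had more reads than its parent in both libraries.

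A different kind of chain lacked 1 exon of the parent and kept the whole coding sequence. Atp5f1, subunit b of the ATP synthase stalk, had 1098 and 1397 reads on such a chain, Ndufa13, an accessory subunit of complex I, had 1082 and 1901, and Atp5j, coupling factor 6 of ATP synthase, had 1038 and 1880. The Ndufa13 chain began at the edge of exon 2. The other 2 began inside it, at an annotated transcript start of the gene in both libraries. The parents of the Atp5f1 and Ndufa13 chains had 0 reads in both libraries, and that of Atp5j had 44 and 90. The Atp5f1 chain started 17 nt from a RefSeq transcript start of the gene, which RefSeq calls Atp5pb.

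Sarcomere genes followed with chains of varied depth. Myh6 encodes the main myosin heavy chain of the adult mouse heart. Its chain of 38 exons, which lacks the first exon of 39 and keeps the start codon, had 608 and 798 reads. Actn2 encodes the Z-disc crosslinker alpha-actinin 2, and its chain of 10 exons had 436 and 608. The ventricular light chain gene Myl3 had 534 and 816 reads on a chain of 4 exons and the atrial Myl4 had 383 and 534. Pink1, a kinase that marks damaged mitochondria, had 622 and 862 reads on a chain of 5 exons, above the 334 and 376 of its parent. Among the other most-read chains, those of Tecr, Acadm, Ssbp1, Atp5c1 and Myh6 had between 192 and 300 reads in replicate 1 and between 287 and 432 in replicate 2.

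**Figure D2:**
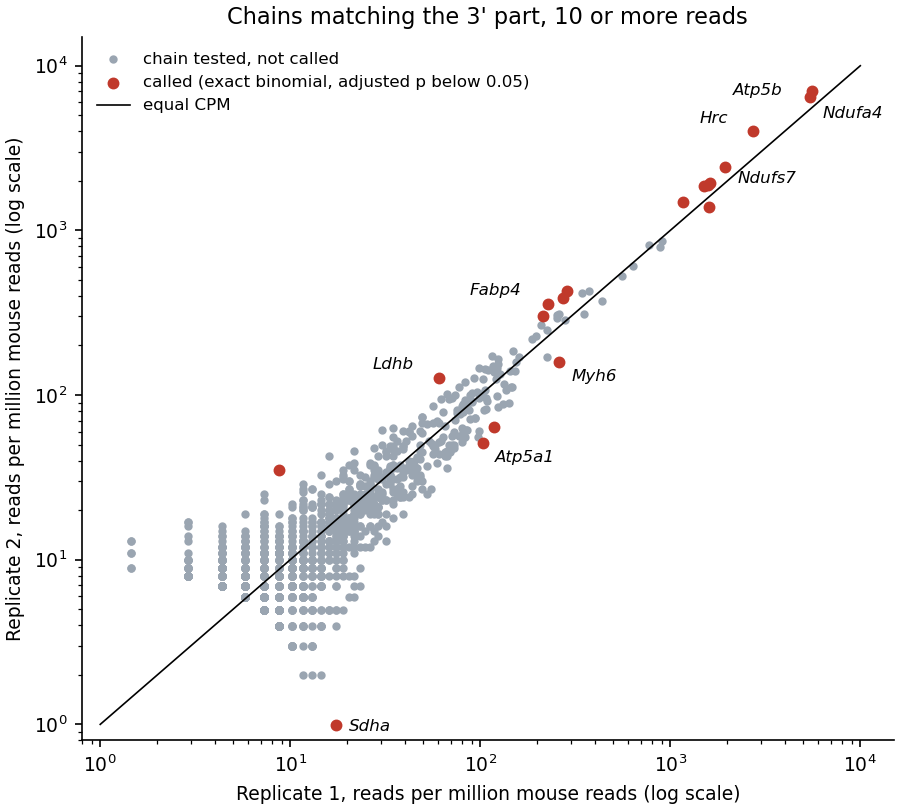
CPM of each suffix chain that had 10 or more reads over both libraries and at least 1 in each, on log axes; each point is 1 chain of the 1283, and the line marks equal values. Red points are the 19 chains called different; Atp5b and Ndufa4 lie highest, and the Sdha chain, with 1 read in replicate 2, lies farthest below the line.

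Some genes were seen almost only through suffix models. Of the 4087 genes with 20 or more reads per library, 67 had over 50% of their reads on suffix models in both libraries. In 22 of them no known model had a read in either library, and in 58 the same chain led in both libraries. In replicate 1 the leading chain kept the annotated start codon in 16 of the 67 genes and lacked it in 48. For comparison, the median gene with 20 reads had 2.50% and 2.67% of its reads on suffix models, and 35.8% and 33.8% of such genes had none. These shares describe the same reads that the class was counted on and are not a test.

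Among the highest shares of genes with 50 or more reads per library were those of Ndufa13 (98.6% and 98.4%), Atp5f1 (97.8% and 96.8%) and the proteasome ATPase gene Psmc2 (96.6% and 97.7%). Hrc stood at 96.1% and 97.4%. Gm20390, at 98.4% and 96.3%, shares exonic bases with the nucleoside diphosphate kinase genes Nme1 and Nme2, so its reads could belong to either. Such sharing on the same strand touches 12 of the 83 genes looked up. Ethe1, a mitochondrial sulfur dioxygenase gene, had 96.0% and 93.9%, and Serping1, the C1 inhibitor gene, 90.8% and 86.2%. Ttll1, a tubulin glutamylase gene, had 86.1% and 91.8%, and Atp5j 83.3% and 83.7%. In each of these 9 genes the shares of the libraries were within 6 percentage points.

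Within a gene, suffix reads were either gathered on 1 chain or spread over the exons. Of 121 genes with 50 or more suffix reads per library, 72 had at least 50% of them on a single chain in both, and the leading chain was the same in 104. Actn2 was of the first kind. Of its suffix reads on the parent with 21 exons, 80.6% and 79.0% began at exon 12, while the median over the 19 internal exons was 5 and 10 reads.

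Myh6 was of the second kind and had the most chains, 141 and 149, of which 92 were found in both libraries. Models began at each of the 37 internal exons of the parent with 39 exons in both libraries. Exon 2 led with 608 and 798 reads, followed by exon 36 with 258 and 432 and exon 38 with 187 and 389. The median exon had 38 and 39 reads. Atp2a2, which encodes the calcium pump of the sarcoplasmic reticulum, had 37 and 40 chains and likewise used all 19 internal exons, led by exon 8 with 82 and 141 reads.

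Longer exons held more starts in these spread-out genes. Across the 37 exons of Myh6, the Spearman correlation of exon length with suffix reads was 0.75 in each library, and across the 19 exons of Atp2a2 it was 0.91 and 0.84. For Actn2 it was 0.54 and 0.56. These correlations are descriptions: the exons share 1 transcript and 1 library. The profiles of the libraries were alike, with Spearman correlations of 0.97 for Myh6, 0.96 for Atp2a2 and 0.79 for Actn2.

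**Figure D3:**
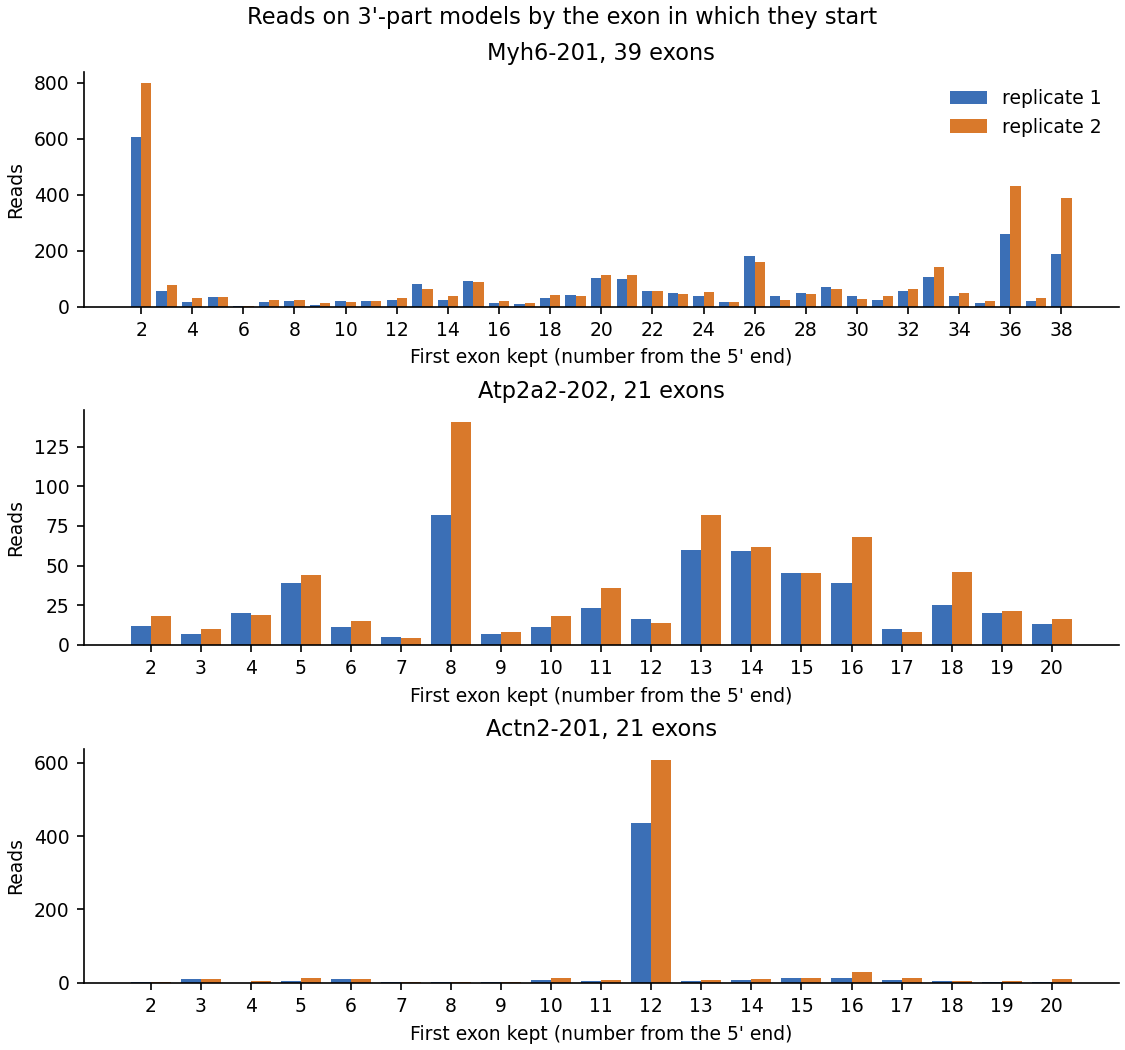
Suffix reads by the first exon kept, numbered from the 5' end, for 1 annotated transcript each of Myh6, Atp2a2 and Actn2; bars are the reads of replicate 1 and replicate 2. Starts are spread over all internal exons of Myh6 and Atp2a2, while exon 12 of Actn2 holds 436 and 608 reads.

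Other genes with many shared chains also spread their suffix reads. Mybpc3, cardiac myosin-binding protein C, had 264 and 336 suffix reads of 349 and 438 in all, on 41 and 47 chains, and none on a known model. Pde4dip had 59 and 89 chains, Myom1, an M-band protein gene, 30 and 40, and the translation initiation gene Eif4g1 30 in each library. In none of these 4 genes did 1 chain hold more than 16.5% of the suffix reads.

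Most suffix reads lay on models that begin downstream of the annotated start codon. Whether the source molecules also lacked it was not tested. The annotated start codon lay upstream of the model start for 84.4% and 85.1% of reads whose parent has one, or 84.8% ± 0.49 (SD, n = 2), and for 91.7% and 91.9% of models. Models without the start codon kept a median of 52.3% and 51.9% of the coding sequence. For 11.5% and 10.8% of reads on models with a parent, none of the annotated parents had a read in the same library.

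Starts away from every annotated position give a base-level view. They were inside the exon in 1036 and 1189 models. The base just before such a start was G in 34.5% (95% exact binomial interval 31.6 to 37.4) and 32.8% (30.1 to 35.6), against 27.7% and 27.5% of all positions in the same exons. The 3 bases GGG stood before the start in 4.25% (3.10 to 5.66) and 3.53% (2.56 to 4.74), against 1.96% and 1.93% of positions. The dinucleotide AG stood there in 9.36% and 8.83%, near the 8.80% and 8.67% of positions. The first kept base was also G more often, in 33.3% and 36.2% against 27.7% and 27.5%. Over the 102 and 127 starts whose model had 5 or more reads, the interval for G before the start, 24.3 to 43.4% and 28.6 to 46.0%, held the 29.2% and 29.0% of positions. The first kept base of these starts was G in 43.1% and 40.9%. The lower interval ends, 33.4% and 32.3%, lay above the 29.2% and 29.0% of positions. GGG stood before 4.9% and 7.09% of these starts, against 2.14% and 2.17% of positions, with the interval above that value in replicate 2 only. Windows of 4 such starts, which both libraries place at the same base in coding sequence, are shown as above, chosen as those with the most reads.
Acadm, chr3, start 153925667, minus strand: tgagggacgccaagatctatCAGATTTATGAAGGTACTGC
Myh6, chr14, start 54942466, minus strand: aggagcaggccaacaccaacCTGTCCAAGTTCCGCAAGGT
Apip, chr2, start 103091877, plus strand: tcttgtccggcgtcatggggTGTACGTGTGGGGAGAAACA
Tnni3, chr7, start 4521042, minus strand: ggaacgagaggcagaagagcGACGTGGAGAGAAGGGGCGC
Acadm, a fatty acid oxidation enzyme gene, had 235 and 417 reads on this chain, and the Myh6 chain of 2 exons had 187 and 389. The methionine salvage gene Apip had 49 and 96, and the cardiac troponin I gene Tnni3 had 41 and 70. Of the 4, Apip has GGG before its start.

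A small group of models began in an intron. Of those in the intron just before the first shared exon, 87.1% and 86.2% lay at an annotated transcript start of the gene. The 10 with the most reads were in Fxyd1, Atp5b, Tango2, Dgat2, Serping1, Pfkm, Ech1, Tspan12, Rpl3l and Pacsin3, and 9 of them lay on such a start in both libraries. Pfkm, the muscle phosphofructokinase gene of glycolysis, was the exception: its chain of 22 exons had 68 and 96 reads and began at 98112034 and 98112121 on chromosome 15. The start in replicate 1 was 26 nt from a RefSeq start and that in replicate 2 lay on an internal exon edge. Fxyd1, which encodes the sodium pump regulator phospholemman, had 144 and 269 reads. Dgat2, a triglyceride synthesis gene, had 99 and 141, and Rpl3l, a striated-muscle ribosomal protein gene, had 47 and 50. The start codon was kept in 5 of the 10.

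RefSeq offers another catalogue of starts. On chromosomes with a start in the table, 1.79% and 1.70% of suffix models, with 4.33% and 3.86% of suffix reads, began within 50 nt of a RefSeq start, against 56.2% and 55.7% of known spliced models. The class definition fixes part of this contrast. Known models keep the first exon of an annotated transcript, whereas suffix models lack that of a longer chain. Of chains found as suffix in both libraries, 103 began within 50 nt of a RefSeq start in both. Among the most-read of these were Myl7, the atrial regulatory light chain gene, and Atp5g3, a gene of the ATP synthase c ring. Myl7 had 155 and 170 reads on a chain of 6 exons that began at the RefSeq start itself, and Atp5g3 had 80 and 150 reads on a chain of 4 exons that began 44 nt from one. In both the first exon ran across the first intron of the parent. The 100 bases before each RefSeq start (RefSeq, GRCm38.p6), none of them in an annotated exon of the strand, are given 5' to 3' in lower case.
Myl7, chr11:5898783-5898882, minus strand: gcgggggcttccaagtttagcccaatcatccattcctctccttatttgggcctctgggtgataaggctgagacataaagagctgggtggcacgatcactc
Atp5g3, chr2:73911327-73911426, minus strand: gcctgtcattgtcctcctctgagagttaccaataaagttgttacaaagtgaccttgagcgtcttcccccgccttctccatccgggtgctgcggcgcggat
The motifs TATAAA and GGGCGG, searched on both strands of the 300 bases around each start, were in neither window. Another gene whose 100 bases are likewise outside annotated exons, Hnrnpf, with 50 and 48 reads, holds GGGCGG. The motifs are in 13.6% and 35.6% of all RefSeq windows of that length.

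Gene lists of the heart are described by the median suffix share of their genes. Medians are over the genes of a list with 20 or more reads per library, beside 2.73% and 2.74% over all such genes. The lists were not matched to all genes in read depth or exon number, and suffix shares were higher in genes with more exons. The sarcomere and Z-disc list had a median share of 13.6% and 14.2% over 27 genes, led in suffix reads by Myh6, Myl3, Actn2 and Myl2. Calcium handling and excitation had 12.1% and 13.0% over 16 genes, led by Hrc and Atp2a2. Fatty acid oxidation had 10.5% and 11.1% over 16 genes, led by Acadm, Cd36, Etfb and Hadhb.

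Translation had 10.3% and 15.3% over 10 genes, glycolysis 6.42% and 6.68% over 10, and the tricarboxylic acid cycle 3.96% and 3.85% over 15. The nuclear respiratory chain list had 2.41% and 2.24% over 19 genes, although Atp5b alone held 4116 and 7379 of its 5123 and 8756 suffix reads. Matrix and fibroblast genes had 16.7% and 15.99% over 8 genes, and endothelial and mural genes 11.1% and 10% over 5. In the latter list Fabp4, a fatty acid carrier of capillary endothelium, had 213 and 452 suffix reads, 80.1% and 83.2% of its reads. These medians are descriptions, and no test was run on them. Shares of all reads of a list give another order. They were 14.7% and 14.4% for the sarcomere, 18.0% and 20.1% for calcium handling and 11.99% and 14.2% for the respiratory chain, against 8.03% and 8.39% over all genes. They were 6.67% and 7.16% for fatty acid oxidation and 6.94% and 6.46% for matrix genes. Endothelial and mural genes had the highest, 49.7% and 51.2%, and Fabp4 held 213 and 452 of their 249 and 495 suffix reads. Translation had 14.1% and 15.7%, glycolysis 6.38% and 7.89%, and the tricarboxylic acid cycle 6.60% and 6.44%.

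Genes known for internal promoters were looked at one by one. All 11 of the list had a suffix read, beside 7030 of all 37810 genes with reads. In the other lists it ran from 15 of 17 calcium handling genes to all 16 fatty acid oxidation genes. The median share over the 5 members with 20 or more reads per library was 24.4% and 16.2%, beside 2.73% and 2.74% over all such genes. This list was not matched to all genes in exon number either. Genes of 26 or more exons had a median share of 20.3% and 18.7%, and the matrix and fibroblast list 16.7% and 15.99%. The part of exon number in the share of this list was not tested. Few of the 11 genes had many suffix reads. Ttn had 38 and 34 suffix reads. On the parent with 347 exons, 60.0% and 67.6% of them began at exon 342, and no read covered that parent in full. Ank1 had 12 and 17, Speg 11 and 11 and Kcnh2 10 and 8. The other 7 genes, Dst, Mylk, Dmd, Nebl, Macf1, Rtn4 and Rtn1, had at most 5 in a library.

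Chains with more than a few reads were found again in the other library. Of suffix chains with at least 5 reads, 99.2% of those in replicate 1 were present in replicate 2 and 96.1% the other way, beside 99.8% and 98.8% of known chains. From 1 read up, the shares were 48.6% and 40.1%, beside 84.4% and 77.6% of known chains. Chains found as suffix in both libraries numbered 6009 and held 86.0% and 85.6% of suffix reads. The 6441 chains found in replicate 1 alone had at most 7 reads and the 9152 found in replicate 2 alone at most 13, and a count of 0 allows up to 4.36 and 2.99 CPM.

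The start was placed within 10 nt in both libraries for 84.6% of the 6009 chains (95% exact binomial interval 83.6 to 85.5). Where both starts lay on annotated internal exon edges it was 98.9% of 3428 chains, an agreement that the shared intron chain and edge nearly fix. Where either lay on no annotated or new-model position it was 36.2% of 868. The starts of the most-read Atp5b chain differed by 66 nt. Without that chain, the share of suffix reads on annotated transcript starts was 21.95% and 21.1%; with it, 27.4% and 19.3%.

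Few suffix chains differed in abundance between the libraries. All 9727 spliced chains of 10 or more reads over both libraries were tested by a two-sided exact binomial test, with the ratio of mouse reads as the null and Benjamini-Hochberg adjustment; a call needs an adjusted p below 0.05. It called 2.27% of all chains, 0.689% higher in replicate 2 and 1.58% lower. Of 1284 suffix chains tested, 19 were called, 14 higher in replicate 2 and 5 lower, while 20498 had too few reads. The share of suffix chains called was 1.48%. Read depth differs between the classes: among chains of 100 or more reads over both libraries, the median absolute log2 ratio was 0.28 over 123 suffix chains and 0.22 over 1809 chains of all classes. Scaling by TMM factors instead, which moves every log2 ratio up by 0.11, gave 17 higher and 3 lower, and turned the split over all chains from 67 higher and 154 lower to 111 and 75.

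The chains higher in replicate 2 were mostly short ones with many reads. Hrc stood at 2736 and 4012 CPM. Its log2 ratio was 0.55 (95% interval 0.47 to 0.63; exact binomial, adjusted p = 5.86e-41). Atp5b differed by 0.32 (adjusted p = 1.74e-26, exact binomial) and Ndufa4 by 0.24 (adjusted p = 4.68e-14, exact binomial). Ldhb, a lactate dehydrogenase gene, had 42 and 128 reads on a chain of 3 exons, a log2 ratio of 1.06 (0.55 to 1.60). The chains of Ndufs7, Ndufa13, Atp5j, Ssbp1, Fabp4, Cd36 and Myh6 (2 exons) were also higher, by 0.27 to 0.66.

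The 5 chains lower in replicate 2 kept 7 to 27 exons, against 2 to 4 in the 14 higher ones. Myh6 from exon 26 had 179 and 159 reads, a log2 ratio of -0.71 (-1.03 to -0.40), and Myh6 from exon 13 had 81 and 64, a ratio of -0.88 (-1.38 to -0.39). Atp5a1, the alpha subunit gene of ATP synthase, had 71 and 51 reads, a ratio of -1.02 (-1.57 to -0.48). Sdha, the succinate dehydrogenase flavoprotein gene, had 12 reads and 1 read, a ratio of -4.13 (-9.55 to -1.37). The Atp5f1 chain differed by -0.20 (-0.31 to -0.08; exact binomial, adjusted p = 0.0397) and was no longer called with TMM factors, like Myh6 from exon 13.

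Model length moved with the ratio. Among suffix chains of 50 or more reads over both libraries, the median log2 ratio was 0.25 over the 51 chains under 500 nt and 0.28 over the 52 from 500 to under 1000 nt. It was -0.18 over the 79 from 1000 to under 2000 nt and -0.37 over the 63 of 2000 nt or more. In known chains the medians were 0.22, 0.14, -0.17 and -0.20, with the same signs. Of the suffix calls among these, all 12 under 1000 nt were higher in replicate 2, and 4 of the 5 calls above it were lower. The part of molecule length in each single call was not tested.

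**Figure D4:**
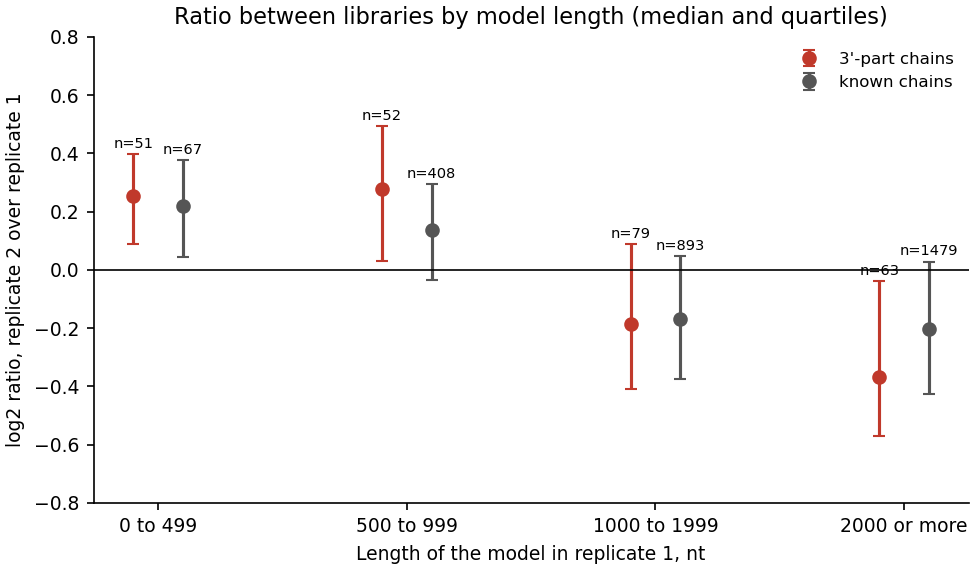
log2 ratio of CPM, replicate 2 over replicate 1, by model length in nt, for suffix and known chains of 50 or more reads over both libraries; points are medians, bars are quartiles over chains, and n counts the chains. Both classes are above 0 below 1000 nt and below 0 above it, with medians of 0.25 and -0.37 for the shortest and longest suffix chains.

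A gene's suffix share was compared between libraries by a two-sided Fisher exact test on reads over the 3226 genes that had a suffix read and 20 or more reads per library. It called 12 genes, 0.372% of those tested. In 9 of these the call was lost when each suffix chain was given the same class and gene in both libraries, a check chosen after seeing the data, which called 3 genes (0.093%). Lmna, the lamin A/C gene, shows the case: a chain of 2 exons with 85 reads was of the suffix class in replicate 1, and the same chain with 166 reads was classed as matching both the 3' and the 5' part in replicate 2. Its suffix share was thus 35.9% and 2.22%. Hnrnpa2b1, an RNA-binding protein gene, showed the reverse with 17.4% and 58.3%. In all, 180 chains were suffix in 1 library and of another class in the other, and 45 were given to different genes.

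The 3 genes that kept their call were Atp5b, Ldhb and Actc1. The suffix share of Atp5b was 49.6% and 60.9% (Fisher exact test, adjusted p = 6.55e-54), 55.2% on average with an SD of 7.99 points. Ldhb had 3.60% and 6.56% (Fisher exact test, adjusted p = 0.00135). Actc1, the cardiac actin gene, had 10.4% and 14.2% (Fisher exact test, adjusted p = 0.0106). All 3 shares were higher in replicate 2. Within the heart lists the 12 called genes included 1 of 26 tested sarcomere genes (Actc1), 1 of 15 calcium handling genes (Trdn, which lost its call with 1 class per chain), 1 of 18 respiratory chain genes (Atp5b) and 1 of 10 glycolysis genes (Ldhb). None was called among 15 tricarboxylic acid cycle, 16 fatty acid oxidation, 8 matrix, 5 endothelial, 10 translation or 5 internal promoter genes.

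Suffix shares were higher in genes with more exons. By the number of exons of the gene's most-read known transcript, the median share was 0% in genes of 2 to 3 exons and 4.55% and 4.76% at 11 to 15. It was 20.3% and 18.7% at 26 or more, over 114 and 155 genes. Across 3938 and 4813 genes with at least 20 reads, the Spearman correlation was 0.48 with the exon number in each library, and 0.26 and 0.25 with transcript length. A transcript with more exons also has more possible suffix chains, and one of 2 exons has none, so the class definition fixes part of this trend. These correlations are across genes, which are not independent replicates.

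**Figure D5:**
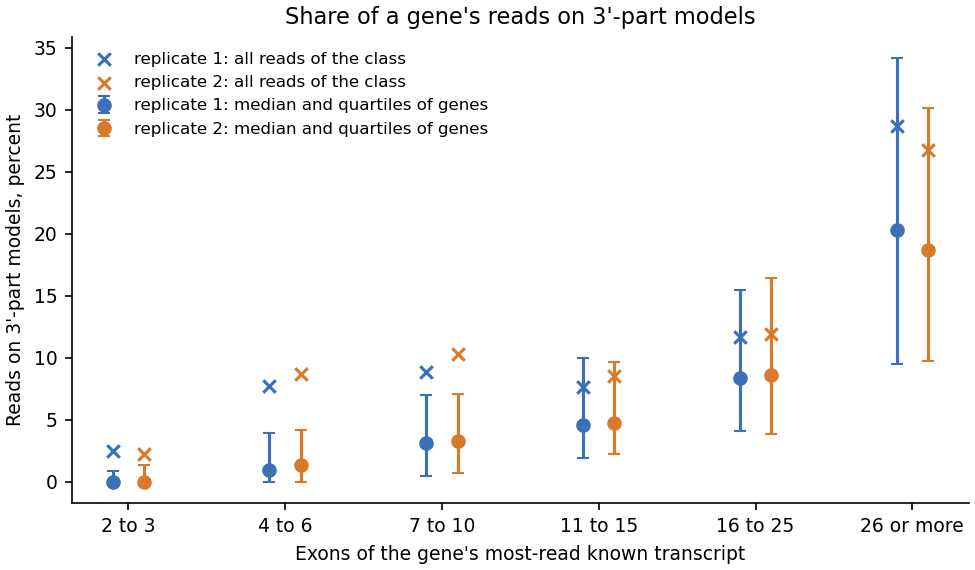
Share of a gene's reads on suffix models by the number of exons of its most-read known transcript; points are medians and bars are quartiles over genes with at least 20 reads, and crosses are the shares of all reads of the class. Medians rise from 0% at 2 to 3 exons to 20.3% and 18.7% at 26 or more.

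The heart label was checked against marker genes. All 8 cardiomyocyte markers had reads, with a summed level of 37293 and 38567 CPM, and none of the 5 skeletal muscle markers had one. Erythroid markers summed to 6242 and 5715 CPM, fibroblast markers to 679 and 499 and endothelial markers to 91.5 and 110, while lymphocyte markers were at 4.36 and 2.99.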

How the data were processed

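The deposited tables of each library were used: read counts per transcript model and the coordinates of those models. The deposited counts are whole reads that the authors assigned to models on mm10 with GENCODE M21, per the labels and file headers, and new models carry TALON as their source. The aligner and tool versions: not given in the sources used here. Reads on spike-in controls were left out of all totals. Models were joined by intron chain in Python 3.11.15 (scipy 1.17.1). Exact binomial and Fisher exact tests used raw counts with Benjamini-Hochberg adjustment at 0.05, and CPM is reads per 1e6 mouse reads. Scaling alternatives used edgeR 4.0.16 and DESeq2 1.42.0 in R 4.3.3. The tests were checked on simulated data, in which chains raised in replicate 2 were called more often than chains lowered by the same fold. RefSeq starts came from a table of 32851 starts on GRCm38.p6; chromosomes without a start in that table were left out of that comparison, and chromosome 18 of the sequences.

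Parents were chosen by reads among GENCODE M21 transcripts of the same gene. The text names the 20 chains with the highest lower read number; the 10 genes with the highest suffix share among those with 50 reads in each library; the 5 largest and 5 smallest ratios among called chains with 20 reads in the higher library; the 6 genes with the most shared chains; the 10 most-read chains that start in an intron; up to 4 genes of each list; and the internal promoter list. Other named genes were picked after their values were seen. Members and lists were chosen with earlier results of these data known. Some items that the rule picks are not reported here.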

Additional observations from a re-analysis of the deposited data

How the results depend on the processing

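No paired analysis was possible because both libraries belong to 1 group. Tests between the libraries need both, so none has a value with a replicate left out. Leaving out either replicate gave a suffix share of 8.03 to 8.39%, 12521 to 15270 chains, a start position of 32.4 to 32.5%, and 84.4 to 85.1% of reads without the start codon. Shared chains were 96.1 to 99.2% by direction.

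The suffix share was 10.004% of reads on spliced models and 7.63% without the most-read Atp5b chain, an alternative chosen after seeing the data. Chains with at least 2 reads numbered 6800. Shared chains were 44.3% from 1 read, 99.9% from 10 reads and 86.5% when the start had to lie within 50 nt; 87.6% of starts were placed alike within 50 nt. The start position was 33.0% with the longest parent, 32.6% with the shortest and 40.8% weighted by reads, and reads without the start codon were 83.1% and 80.8% with the longest and shortest parents. The rank correlation was 0.48 with exon number, against 0.25 with length. Genes with a different suffix share numbered 7 after thinning replicate 2 and 3 with 1 class and gene for each chain, also chosen after seeing the data. Chains that differ numbered 13 to 20 under all 5 alternatives, and none of the 19 called chains with a ratio changed sign. TMM or DESeq2 factors add 0.11 to every log2 ratio, so that small negative ratios of chains not called turn positive. With no minimum of reads 6 of the 19 calls were lost, with TMM or DESeq2 factors 2 and with thinning 3; Sdha had 0 reads in replicate 2 after thinning and gave no ratio. Depth limits the rest: 20498 suffix chains had too few reads to test, and starts are resolved to an exon.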
